A study of Homo sapiens with 36 samples.

Results

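The 27 replication-dependent histone genes described here were the rows of the deposited count table whose symbol began with HIST1H to HIST4H, the older names of the clustered histone genes. They were 27 of 15186 genes in the table. U2OS cells, a human osteosarcoma line, stably transfected with glucocorticoid receptor alpha, received a pair of siRNAs in each of 6 conditions: siHic5siNS, siCHD9siNS, siBRMsiNS, siCHD9siHic5, siBRMsiHic5 and, as control, siNSsiNS. The siRNAs were directed at the coregulator Hic-5 (gene TGFB1I1) and at the chromatin remodelers CHD9 and BRM (gene SMARCA2), and siNS was the non-targeting one. After 48 h the cells received 100 nM dexamethasone (dex), a synthetic glucocorticoid, or ethanol vehicle for 8 h, so that all 12 groups of 3 libraries carried the added receptor and a pair of siRNAs. The replicates were grown on different days. The study asked whether genes blocked by Hic-5 need CHD9 or BRM once Hic-5 is depleted.

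Replication-dependent histone genes encode the core histones H2A, H2B, H3 and H4, around which DNA is wound, and the linker histone H1. They lie in clusters, are transcribed mainly in S phase, and their main mRNAs end in a stem-loop that SLBP binds, with no poly(A) tail. Some of them also give longer, polyadenylated transcripts, known from differentiating cells. An RNA library that selects poly(A) tails recovers only the second kind. The libraries here were made from total RNA, and no source used here gives whether a poly(A) step was used.

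The conserved stem-loop is shown because it is the element that sets these mRNAs apart. A search of GENCODE 29 transcripts (GRCh38) found it in 19 of the 27 genes, in 5 spellings. For the other 8 genes the search does not show absence, since an annotated transcript can stop before the stem-loop. The only transcripts of HIST1H2BK and HIST1H4K hold 381 and 312 bases. HIST1H4K gave no hit, although its 312 bases are identical to HIST1H4J, where the stem-loop was found. Capitals mark the paired arms of the stem.
HIST1H2AC, HIST2H2BE, HIST2H3C and 7 other genes: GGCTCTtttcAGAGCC
HIST1H4E, HIST1H4H, HIST1H4J and HIST4H4: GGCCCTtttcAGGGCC
HIST1H2BC and HIST1H2BD: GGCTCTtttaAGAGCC
HIST1H2AG and HIST2H2BC: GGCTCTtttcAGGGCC
HIST2H4A: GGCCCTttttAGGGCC
In 15 of the 19 genes an annotated transcript with the stem-loop ran more than 50 bases past it. Genes on both sides of the changes below carry the same letters: HIST2H2BE, which rose with siHic5siNS, and HIST2H3C, which fell, share 1 spelling.

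The members comprised 1 H1, 5 H2A, 12 H2B, 3 H3 and 6 H4 genes. By name, 17 were HIST1 genes, on chromosome 6, 9 were HIST2 genes, on chromosome 1, and 1, HIST4H4, lay on chromosome 12. HIST2H2BA, at chr1:121107175-121117292, lies apart from the other HIST2 genes, such as HIST2H2BE at chr1:149884459-149886682. RefSeq annotated 25 as protein coding and HIST2H2BA and HIST2H2BC as transcribed pseudogenes. GENCODE 29 holds 71 protein-coding genes with HIST1 to HIST4 names, and 25 of them were rows of the table. The other clustered histone genes were not analysed here. HIST2H2AA3 and HIST2H2AA4 are identical over 549 bases of transcript, and their counts differed by a ratio of 1 to 1.02 in the 36 libraries, so they are 1 measurement. HIST1H4J and HIST1H4K are identical over 312 coding bases, with count ratios of 1.07 to 1.3, and their reads cannot be separated with certainty. The counts of genes below still take each gene of both pairs separately. HIST2H3C overlaps annotated HIST2H4A on the other strand, and no source used here gives the strand setting of the counting. HIST1H2BD overlaps LARP1P1 on its own strand and AL353759.1 on the other. Other annotated genes also overlap HIST2H2BF, HIST2H2BA, HIST2H2BC, HIST1H3D, HIST1H2BE and HIST1H2BN. The part of these overlaps in the values was not tested.

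Library totals were 27442282 to 47148257 counts. RNA28S5, the 28S ribosomal RNA, took 0.324% to 7.51% of them and exceeded 1% in 11 libraries: replicate 3 of siHic5siNS dex and vehicle, replicates 2 and 3 of every siBRMsiNS and siBRMsiHic5 group, and replicate 3 of siNSsiNS vehicle. The targeted genes were checked first. TGFB1I1 averaged 7.07 ± 3.58 CPM (the count scaled to its library's size with upper-quartile factors) with siHic5siNS, 7.47 ± 1.59 with siCHD9siHic5 and 5.23 ± 1.09 with siBRMsiHic5, against 28.4 ± 0.785 CPM with siNSsiNS (SD, n = 3 each, vehicle). SMARCA2 averaged 8.76 ± 1.18 CPM with siBRMsiNS and 7.56 ± 1.53 CPM with siBRMsiHic5, against 30.3 ± 4.74 CPM with siNSsiNS. CHD9 averaged 60.1 ± 8.94 CPM with siCHD9siNS, against 88.6 ± 9.46 CPM with siNSsiNS. In the libraries labelled siCHD9siHic5, however, CHD9 averaged 123 ± 17.9 CPM, above the control, so the transcript went against the label there, and every direction given for those libraries carries that doubt. Of 8 osteoblast lineage markers 5 were in the table, with a summed level of 2385 to 5612 CPM per library, mostly from COL1A1 and SPARC; the lowest values over libraries were 3.6 CPM for ALPL and 2.38 CPM for SPP1. The 2 of 3 epithelial markers in the table, EPCAM and CDH1, summed to 2.68 to 5.75 CPM, and the 3 endothelial markers, VWF, PECAM1 and CDH5, to 1.09 to 13.6 CPM. None of 4 leukocyte markers was in the table.

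The histone genes had 1 to 6255 counts per library. Their mean over 36 libraries was below 1 CPM for 7 genes, 1 to 10 CPM for 14 and at least 10 CPM for 6, so most values below rest on few counts. HIST1H2BK (an H2B gene), HIST1H1C (the linker histone H1.2) and HIST2H2BE (another H2B gene) averaged 94.3, 57.6 and 32.1 CPM and made up 62.0% to 76.9% of the summed histone CPM of a library, with a median of 71.3%. Per kilobase of annotated exon, the mean levels were 247 CPM for HIST1H2BK, 89.8 CPM for HIST1H1C, 19.1 CPM for HIST2H2AA3 and 14.6 CPM for HIST2H2BE. HIST1H2BN, at 0.192 CPM per kilobase, was the lowest of the 27 on that scale. The order depends on the annotation. The exon length was 381 bases for HIST1H2BK, 642 for HIST1H1C and 2194 for HIST2H2BE. It was 5477 bases, over 4 transcripts, for HIST1H2BN.

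Summed over all 27 genes, the vehicle libraries held 377 ± 36.6 CPM with siHic5siNS, 179 ± 26.5 with siCHD9siNS, 308 ± 16.4 with siBRMsiNS, 226 ± 18.5 with siCHD9siHic5 and 203 ± 14.6 with siBRMsiHic5, against 321 ± 46.3 CPM with siNSsiNS (SD, n = 3 each). The dex libraries held 337 ± 28.9, 147 ± 29.6, 321 ± 41.8, 209 ± 25.4 and 197 ± 15.9 CPM in the same order of siRNAs, against 314 ± 63.4 CPM with siNSsiNS. The siCHD9siNS, siCHD9siHic5 and siBRMsiHic5 libraries therefore lay below all siNSsiNS libraries of their treatment, while the siHic5siNS and siBRMsiNS libraries overlapped them. In bulk RNA, fewer cells of a kind (such as cells in S phase) and less RNA per cell cannot be told apart.

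**Figure D1:**
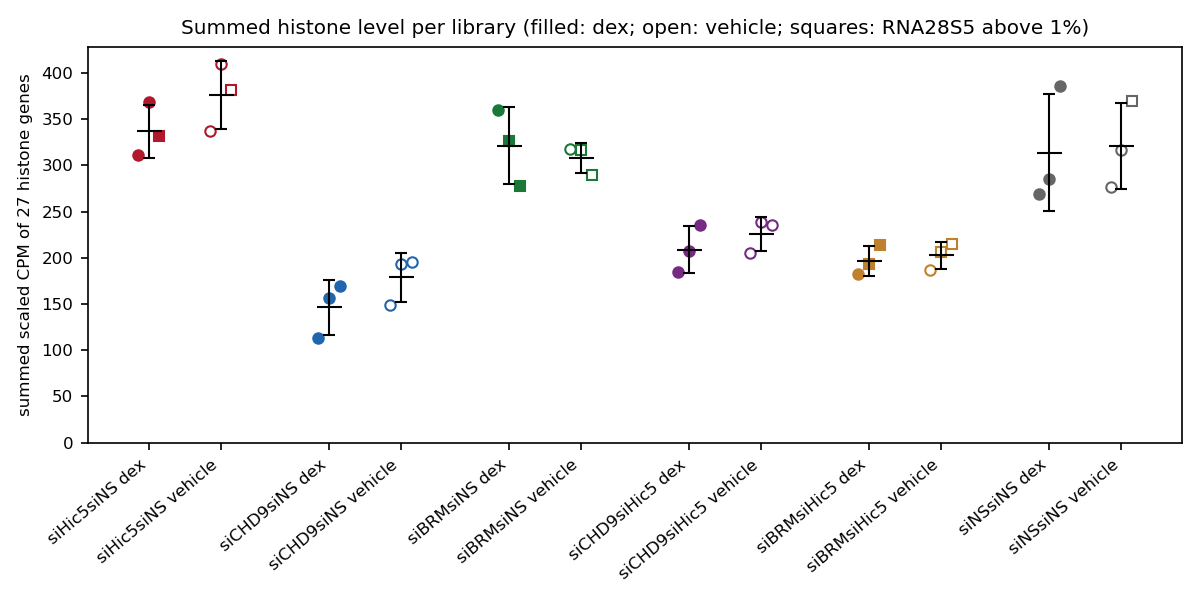
Summed scaled CPM of the 27 histone genes (y axis) in each of 36 libraries, by siRNA condition with dex left of vehicle; points are libraries, bars the mean and SD of 3, squares libraries with RNA28S5 above 1%. The siCHD9siNS vehicle mean of 179 CPM and the siBRMsiHic5 vehicle mean of 203 CPM sit below the siNSsiNS vehicle mean of 321 CPM.

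With siHic5siNS in vehicle, 11 of the 27 genes rose and 3 fell relative to siNSsiNS (edgeR quasi-likelihood test, Benjamini-Hochberg adjusted p under 0.05 over 15179 genes), where 26% of all tested genes rose and 27.2% fell. Taken in either direction, 14 of 27 is close to the 53.1% of all genes called, and all genes too were called in both directions. The 11 that rose were 5 of 6 H4 genes, 5 of 12 H2B genes and 1 of 5 H2A genes. The median log2 change was 0.26 over the 27 genes and -0.01 over all genes tested. HIST1H2BK and HIST1H1C, the members with the highest mean CPM, did not pass the test.

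HIST2H2BE, an H2B gene with long polyadenylated transcripts, had 80.0, 99.8 and 87.1 CPM in the siHic5siNS vehicle libraries, against 27.2, 28.2 and 31.8 CPM in siNSsiNS. The groups stood far apart, a log2 change of 1.61 ± 0.20 (SE; edgeR adjusted p = 1.8e-07). HIST1H2BD, also H2B, had 21.3, 28.3 and 19.1 CPM with siHic5siNS, against 3.71, 2.97 and 6.55 CPM with siNSsiNS. Every treated library exceeded every control, with a log2 change of 2.37 ± 0.42 (edgeR adjusted p = 3.62e-05). HIST1H4E, an H4 gene at few counts, had 2.72, 2.59 and 2.14 CPM with siHic5siNS, against 0.301, 0.233 and 0.339 CPM with siNSsiNS. Its log2 change of 3.07 ± 0.47 was the largest of the 27 (edgeR adjusted p = 4.79e-06).

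HIST4H4, the isolated H4 gene, had 1.84, 2.05 and 1.46 CPM with siHic5siNS, against 0.200, 0.10 and 0.734 CPM with siNSsiNS, a log2 change of 2.31 ± 0.42. HIST2H2BF, an H2B gene, had 5.37, 8.70 and 6.62 CPM with siHic5siNS, against 2.44, 2.30 and 3.05 CPM with siNSsiNS, a log2 change of 1.41 ± 0.22. Neither gene's groups overlapped. HIST1H4K and HIST1H4J both rose by 1.21 and share sequence, as given above. HIST1H4H, HIST1H2BG, HIST2H2BA and HIST1H2AC rose by 1.85, 1.86, 1.82 and 1.18 on the log2 scale.

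HIST2H3C, an H3 gene, went the other way: it had 0.776, 1.01 and 1.46 CPM with siHic5siNS, against 3.87, 4.14 and 4.07 CPM with siNSsiNS. It fell by 1.88 ± 0.42 on the log2 scale (edgeR adjusted p = 0.000524). HIST1H2BC, an H2B gene, had 0.582, 0.807 and 1.03 CPM with siHic5siNS, against 1.70, 2.00 and 2.48 CPM with siNSsiNS, and fell by 1.35 ± 0.26. The pseudogene HIST2H2BC fell by 0.44 ± 0.18, just past the threshold (edgeR adjusted p = 0.046). Of the highest members, HIST1H2BK changed by -0.46 ± 0.20 (edgeR adjusted p = 0.0525) and HIST1H1C by 0.00 ± 0.20.

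**Figure D2:**
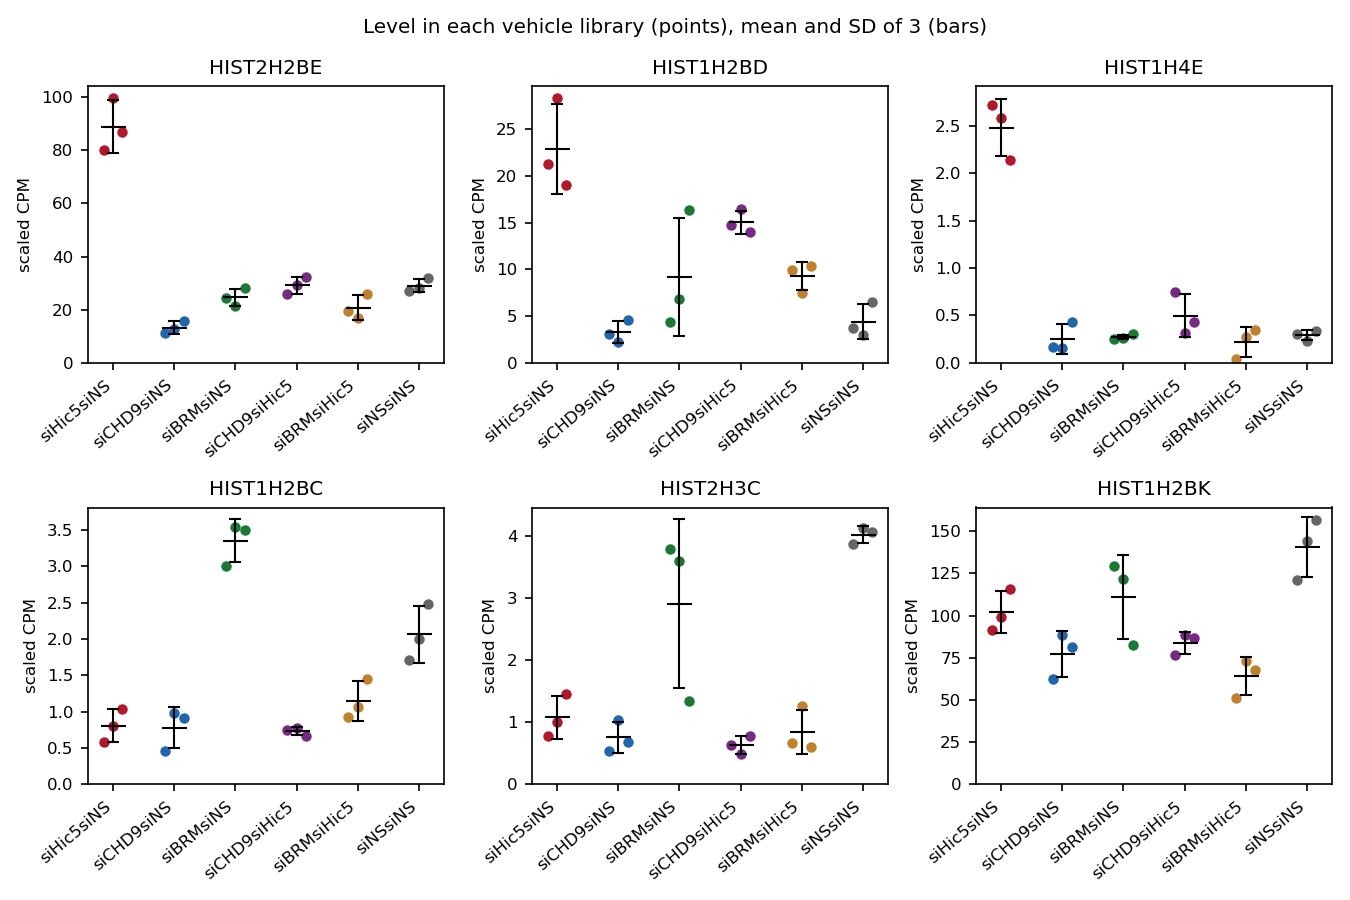
Scaled CPM (y axis) of 6 histone genes in the 3 vehicle libraries of each siRNA condition (x axis); points are libraries, bars the mean and SD. HIST2H2BE lies at 80.0 to 99.8 CPM with siHic5siNS and at 27.2 to 31.8 CPM with siNSsiNS, while HIST2H3C lies at 0.776 to 1.46 CPM and at 3.87 to 4.14 CPM.

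The dex libraries are other libraries, which pair with the vehicle ones by replicate number. In them 11 members rose and 5 fell with siHic5siNS, against 25.2% and 28.5% of all genes. All 14 calls made in vehicle were made there in the same direction, 87.5% of the 16 in dex. HIST1H2BK and HIST1H2BO, both H2B genes, passed only with dex, falling by 0.63 ± 0.20 and 0.84 ± 0.34. Whether their change differs between the treatments was tested by the difference of dex responses given below.

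Within the 27, 6 genes are known also for polyadenylated transcripts, and 4 of the calls already given are theirs: HIST2H2BE, HIST1H2BD, HIST1H4H and HIST1H2AC rose with siHic5siNS in vehicle, while HIST1H1C and HIST1H2BK did not pass. Lists of genes outside the clusters were read in the same comparison, where 26% of all genes rose and 27.2% fell. Of 20 S phase genes 14 fell and 0 rose, with a median of -0.83, and all 12 mitotic genes fell, with a median of -1.48. CCNB1 (cyclin B1) fell to 77.6 ± 8.58 CPM with siHic5siNS, against 273 ± 13.4 CPM with siNSsiNS. PCNA, the sliding clamp of DNA replication, fell to 77.7 ± 9.01 CPM, against 136 ± 7.10 CPM. SLBP, which binds the stem-loop, fell to 31.0 ± 6.0 CPM, against 48.4 ± 1.12 CPM (edgeR adjusted p = 0.000777). Among 20 factors of histone mRNA transcription and 3' end formation, 1 rose and 9 fell. Of 12 replication-independent histone genes 2 rose and 7 fell: H2AFX, the variant phosphorylated at DNA breaks, fell by 1.64 ± 0.25, and H2AFY2 (macroH2A2) rose by 0.99 ± 0.20. The part of cell cycle state in the histone values was not tested.

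With siCHD9siNS every call was a fall. In vehicle 16 of the 27 genes fell, 0 rose and 11 did not pass, where 16.5% of all genes fell and 15.8% rose. The median log2 change was -1.04, against 0.02 over all genes. The 16 comprised the H1 gene, 3 of 5 H2A, 8 of 12 H2B, all 3 H3 and 1 of 6 H4 genes. With dex 21 fell and 0 rose, against 10.7% and 7.96% of all genes. All 16 of the vehicle calls were among them, 76.2% of the dex calls.

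HIST2H3C had 0.543, 1.04 and 0.690 CPM with siCHD9siNS, against 3.87, 4.14 and 4.07 CPM with siNSsiNS, and fell by 2.42 ± 0.43 on the log2 scale (edgeR adjusted p = 0.000129). HIST2H2BE, which siHic5siNS raised, had 11.1, 12.6 and 15.9 CPM with siCHD9siNS, against 27.2, 28.2 and 31.8 CPM, and fell by 1.14 ± 0.20. HIST1H2BK had 62.5, 88.8 and 81.1 CPM with siCHD9siNS, against 121, 144 and 157 CPM, and fell by 0.86 ± 0.20. For these 3 genes no library overlapped the control. HIST1H3H, an H3 gene, fell by 1.63 ± 0.29, HIST2H2BC by 1.35 ± 0.19 and HIST1H1C by 0.64 ± 0.20. HIST1H4K (0.46 ± 0.22) and HIST1H4J (0.43 ± 0.23) had positive changes that did not pass the test.

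Of 20 S phase genes, 4 rose and 0 fell with siCHD9siNS in vehicle, with a median of 0.36, where 15.8% of all genes rose. PCNA averaged 245 ± 18.1 CPM, against 136 ± 7.10 CPM with siNSsiNS, and TYMS (thymidylate synthase) rose by 0.88 ± 0.16. SLBP averaged 56.1 ± 8.22 CPM, against 48.4 ± 1.12 CPM, and did not pass the test. NPAT, the coactivator of histone gene transcription, fell to 32.8 ± 1.15 CPM, against 50.5 ± 5.09 CPM. It is from the list of 20 factors above, whose count of calls in this comparison is not given here. The part of NPAT in the histone values was not tested. Of 12 mitotic genes, 4 fell and 0 rose, where 16.5% of all genes fell.

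With siBRMsiNS in vehicle 1 member rose and 0 fell, against 4.26% and 2.19% of all genes. HIST1H2BJ, an H2B gene, had 4.18, 5.40 and 8.62 CPM with siBRMsiNS, against 2.67, 3.40 and 3.64 CPM, a log2 change of 0.91 ± 0.26 (edgeR adjusted p = 0.039). With dex the 1 member called was HIST2H2AC, at 0.60 ± 0.19, where 7.06% of all genes were higher and 4.77% lower. Both counts fell to 0 without siNSsiNS replicate 1, without siNSsiNS replicate 2 or without siBRMsiNS replicate 3. Without siNSsiNS replicate 3 they were 3 in vehicle and 5 with dex, and without siBRMsiNS replicate 1 they were 2 and 2. With the replicate number as a block they were 3 and 4 higher, against 9.59% and 11.6% of all genes. Neither call was made without the 11 libraries high in RNA28S5, which leaves 1 library in each siBRMsiNS group.

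The matrix of changes places the conditions side by side. HIST2H3C had a change of -1.88 or lower in 4 of the 5 conditions, while HIST1H2BD was positive in 4.

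**Figure D3:**
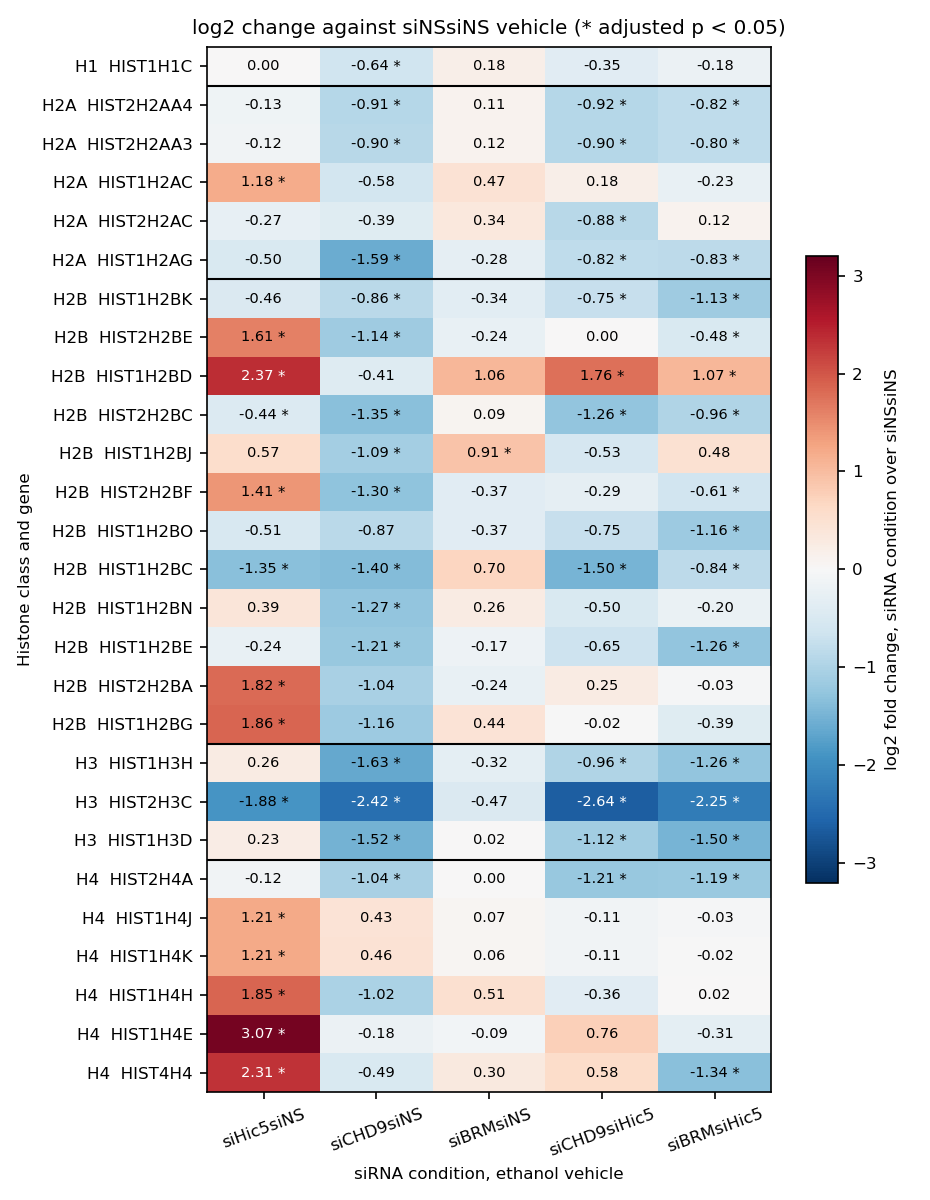
log2 fold change of each of the 27 histone genes (rows, by class and mean level) in 5 siRNA conditions over siNSsiNS in vehicle (columns); asterisks mark edgeR adjusted p under 0.05. HIST1H4E reaches 3.07 with siHic5siNS and HIST2H3C -2.64 with siCHD9siHic5.

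When a remodeler siRNA was combined with siHic5, HIST1H2BD was the only gene of the 11 above that was still called higher than the control in vehicle. In the libraries labelled siCHD9siHic5, 1 member rose and 11 fell relative to siNSsiNS in vehicle, against 23.7% and 28.9% of all genes. HIST1H2BD had 14.7, 16.4 and 14.0 CPM, against 3.71, 2.97 and 6.55 CPM with siNSsiNS, a log2 change of 1.76 ± 0.41. HIST2H2BE had 25.8, 29.5 and 32.2 CPM there, against 27.2, 28.2 and 31.8 CPM, and its groups overlapped. HIST2H3C fell by 2.64 ± 0.44 and HIST1H2BC by 1.5 ± 0.26. With dex, 1 rose and 13 fell, against 22.3% and 29.2% of all genes.

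With siBRMsiHic5 in vehicle, 1 member rose and 15 fell relative to siNSsiNS, against 24.4% and 24.6% of all genes. HIST1H2BK had 51.3, 73.1 and 68.1 CPM, against 121, 144 and 157 CPM, and fell by 1.13 ± 0.20 (edgeR adjusted p = 5.79e-05). HIST1H3D, an H3 gene, fell by 1.5 ± 0.30. HIST1H2BD rose by 1.07 ± 0.41. With dex 1 rose and 11 fell, against 22.4% and 23.1% of all genes. Without the libraries high in RNA28S5, which leaves 1 siBRMsiHic5 library per treatment, 7 members were called in vehicle and 5 with dex. In the same vehicle groups 4 of 6 other RNAs that lack a poly(A) tail rose with siBRMsiHic5, opposite to the 15 histone genes that fell. Among them was RMRP, the RNA of RNase MRP, at 4.77 ± 3.86 CPM, against 0.605 ± 0.532 CPM. Its libraries varied widely, with an SD close to the mean in both groups. S phase genes gave 0 calls of 20, and 7 of 12 mitotic genes fell. The part of these library differences in the histone values was not tested.

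Set against siHic5siNS itself, which is the comparison the study's question names, the calls were all falls. In the libraries labelled siCHD9siHic5, 19 of 27 fell and 0 rose, against 25.7% and 21.9% of all genes. With siBRMsiHic5, 20 fell and 0 rose, against 24.2% and 25.2% of all genes. Both comparisons share the siHic5siNS libraries. The medians were -1.0 and -1.06, against -0.04 and 0.02 over all genes.

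HIST2H2BE had 25.8, 29.5 and 32.2 CPM with siCHD9siHic5 and 19.7, 16.9 and 25.9 CPM with siBRMsiHic5, against 80.0, 99.8 and 87.1 CPM with siHic5siNS. Its log2 changes were -1.61 ± 0.20 and -2.09 ± 0.20, with no overlap (edgeR adjusted p = 1.69e-07 and 4.15e-09). HIST4H4 had 0.376, 0.808 and 0.432 CPM with siCHD9siHic5 and 0.111, 0.0819 and 0.210 CPM with siBRMsiHic5, against 1.84, 2.05 and 1.46 CPM. Its log2 changes were -1.74 ± 0.39 and -3.65 ± 0.47, and neither group overlapped siHic5siNS. HIST1H4E changed by -2.31 ± 0.43 and -3.38 ± 0.47, and HIST2H2BF by -1.70 ± 0.22 and -2.02 ± 0.23. HIST1H2BC, already low with siHic5siNS, changed by -0.15 ± 0.27 and 0.51 ± 0.27 and passed neither test. With siBRMsiHic5, 12 of 20 S phase and 11 of 12 mitotic genes rose over siHic5siNS and none fell, where 25.2% of all genes rose. In the libraries labelled siCHD9siHic5, 5 of 20 S phase genes rose and 1 fell, and 6 of 12 mitotic genes rose, where 21.9% of all genes rose. CCNB1 averaged 159 ± 33.6 CPM with siCHD9siHic5 and 209 ± 16.4 CPM with siBRMsiHic5, against 77.6 ± 8.58 CPM with siHic5siNS. Without the libraries high in RNA28S5, 18 members fell in the libraries labelled siCHD9siHic5. For siBRMsiHic5 that fit leaves 1 vehicle library, and fewer calls were made. No share of all genes is given here for that fit.

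**Figure D4:**
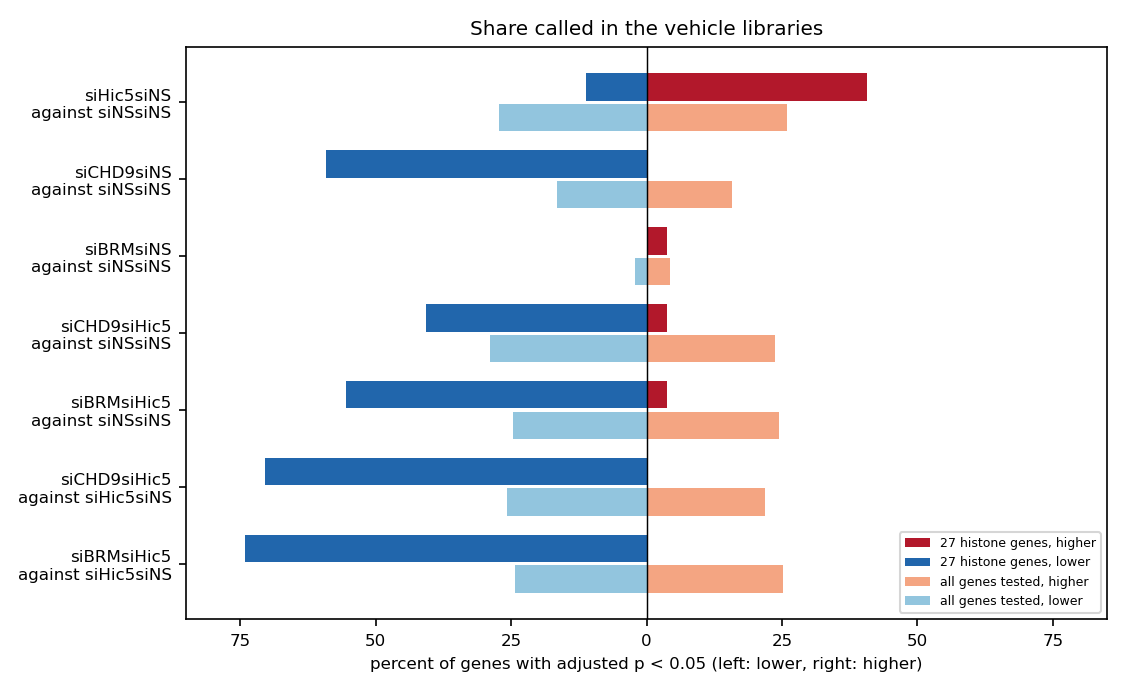
Percent of the 27 histone genes and of all 15179 tested genes with edgeR adjusted p under 0.05 (x axis, lower to the left and higher to the right of 0) in 7 vehicle comparisons (rows). With siCHD9siNS 16 of 27 histone genes fell, where 16.5% of all genes did.

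The effect of siHic5 was also taken over each remodeler siRNA, in comparisons chosen after the data were seen. Over siCHD9siNS, the libraries labelled siCHD9siHic5 had 5 members higher and 2 lower, against 14.9% and 21.9% of all genes. That split depended on scaling: it was 8 higher and 0 lower with trimmed-mean factors. HIST2H2BE, higher by 1.14 ± 0.20, and HIST1H2BD, higher by 2.18 ± 0.42, were among the 5. With the replicate number as a block, which pairs these samples, 9 were higher and 3 lower, against 17.5% and 24.9% of all genes. Over siBRMsiNS, siBRMsiHic5 had 0 higher and 11 lower, against 8.81% and 13.5% of all genes. The replicate number paired these samples too, and with it as a block 0 were higher and 12 lower. That fit called 1903 of all 15179 genes higher and 2502 lower. The 11 became 4 without the libraries high in RNA28S5, which leaves 1 library per group, and 5 in a fit of only the groups compared. HIST1H2BC had 0.924, 1.07 and 1.45 CPM with siBRMsiHic5, against 3.01, 3.54 and 3.50 CPM with siBRMsiNS, and fell by 1.54 ± 0.25.

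The difference between siHic5 effects was tested directly as an interaction. With siBRM minus with siNS, 0 members were higher and 16 lower, against 9.68% and 11.3% of all genes. HIST2H2BE gave -1.85 ± 0.28 (edgeR adjusted p = 3.87e-05) and HIST4H4 gave -3.95 ± 0.65 (edgeR adjusted p = 0.000119). Without the libraries high in RNA28S5, 4 remained called: HIST2H2BE, HIST4H4, HIST1H4E and HIST1H3D. With siCHD9 minus with siNS, 1 member was higher and 3 were lower, against 9.34% and 11.9% of all genes. With trimmed-mean factors that split was 3 higher and 3 lower. The 3 lower were the H4 genes HIST1H4K, HIST1H4J and HIST1H4E, of which HIST1H4K and HIST1H4J share sequence. HIST1H2BC was the higher one, at 1.25 ± 0.38.

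Treatment with dex for 8 h gave 0 calls among the 27 genes in all 6 siRNA conditions by edgeR with 12 group means, and 0 by DESeq2 and by limma. DESeq2 and limma also used group means, so all of these fits left out the pairing of dex and vehicle libraries described below. Unadjusted p under 0.05 was reached by 2 members with siCHD9siNS, 1 with siBRMsiHic5 and 0 in the other 4 conditions. The share of all genes called in either direction was 0.343% with siNSsiNS, 0.876% with siHic5siNS, 0.949% with siCHD9siNS, 0.382% with siBRMsiNS, 0.455% with siCHD9siHic5 and 0.501% with siBRMsiHic5. The median log2 change of the members was -0.30 with siCHD9siNS and -0.16 with siHic5siNS, and within 0.06 of 0 in the other 4.

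The dex and vehicle libraries of 1 siRNA condition pair by replicate number, and a fit with that pairing as a block had less spread. It called 7 members lower with siCHD9siNS, against 13% of all genes, and 1 member, HIST2H2BE, lower with siHic5siNS and with siCHD9siHic5, against 4.57% and 1.52%. HIST2H2BE had 8.68, 8.18 and 12.8 CPM in siCHD9siNS dex libraries, against 11.1, 12.6 and 15.9 CPM in the vehicle libraries of the same replicate numbers. It was lower in 3 of 3 pairs, a blocked log2 change of -0.42 ± 0.09 (edgeR adjusted p = 0.00243). HIST1H2BK had 48.7, 74.7 and 69.4 CPM with dex, against 62.5, 88.8 and 81.1 CPM in vehicle, a blocked change of -0.28 ± 0.05. The other 5 called with siCHD9siNS were HIST1H1C, HIST1H2BD, HIST2H2AA3, HIST2H2AA4 and HIST2H4A. No member's dex response differed from that with siNSsiNS by edgeR with group means, by DESeq2 or by limma, where 0 to 0.00659% of all genes did, and no member reached an unadjusted p under 0.05. With the block, 5 members reached an unadjusted p under 0.05 with siCHD9siNS and 1 with siBRMsiNS, against 3220 and 614 of all 15179 genes. After adjustment 1 member passed: HIST1H2BK with siCHD9siNS, at -0.27 ± 0.07 (edgeR adjusted p = 0.0499), against 1.85% of all genes lower.

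Histone genes often stand in pairs that start back to back and share the DNA between their starts. There were 4 such pairs among the members, with 235 to 287 bases between the starts. Promoters of RefSeq genes (GRCh38.p14), 250 bases before to 50 after the start, were available for 25 members. The motif CCAAT was found, on either strand, in 76.0% of these genes and in 34.6% of 35116 promoters. TATAAA was found in 76.0% and 11.5%, and the octamer ATTTGCAT in 48.0% and 1.77%. A member counted if any of its promoters held the motif, while the 35116 promoters were counted singly. The shares are therefore not of the same unit. The windows of HIST1H2AC at chr6:26123922-26124221 (plus strand) and HIST2H2AC at chr1:149886668-149886967 (plus strand) are shown, since each spans the gap to a partner whose values are given next. Capitals mark these 3 motifs on either strand.
HIST1H2AC: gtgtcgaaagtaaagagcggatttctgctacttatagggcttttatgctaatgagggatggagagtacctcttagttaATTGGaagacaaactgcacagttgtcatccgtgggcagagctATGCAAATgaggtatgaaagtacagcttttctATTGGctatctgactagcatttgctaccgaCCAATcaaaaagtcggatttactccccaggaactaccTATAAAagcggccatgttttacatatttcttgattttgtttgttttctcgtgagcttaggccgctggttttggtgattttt
HIST2H2AC: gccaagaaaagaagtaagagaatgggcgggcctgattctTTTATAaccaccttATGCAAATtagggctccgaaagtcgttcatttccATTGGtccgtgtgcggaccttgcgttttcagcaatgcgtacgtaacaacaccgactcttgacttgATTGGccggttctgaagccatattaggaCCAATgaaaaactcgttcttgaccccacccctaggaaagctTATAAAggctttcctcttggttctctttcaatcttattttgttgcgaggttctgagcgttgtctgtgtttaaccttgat
Both windows hold all 3 motifs. The window of HIST2H2AA4, in the pair 287 bases apart, holds CCAAT and TATAAA but not the octamer.

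With siHic5siNS in vehicle, HIST1H2AC had 10.5, 11.9 and 8.03 CPM, against 3.67, 3.43 and 6.24 CPM with siNSsiNS. It rose by 1.18 ± 0.31, while HIST1H2BC, 245 bases away on the other strand, fell by 1.35 ± 0.26. HIST2H2BE rose by 1.61 ± 0.20, while HIST2H2AC, 235 bases away, had 3.17, 3.36 and 3.42 CPM, against 3.47, 4.44 and 4.09 CPM, and did not pass the test at -0.27 ± 0.19. In the pair 287 bases apart, HIST2H2AA4 changed by -0.13 ± 0.19 and HIST2H2BC by -0.44 ± 0.18, and HIST2H2BC alone passed the test. In the pair 247 bases apart, HIST1H2AG changed by -0.50 ± 0.33 and HIST1H2BJ by 0.57 ± 0.26, and neither passed. The difference between partners was not tested.

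**Figure D5:**
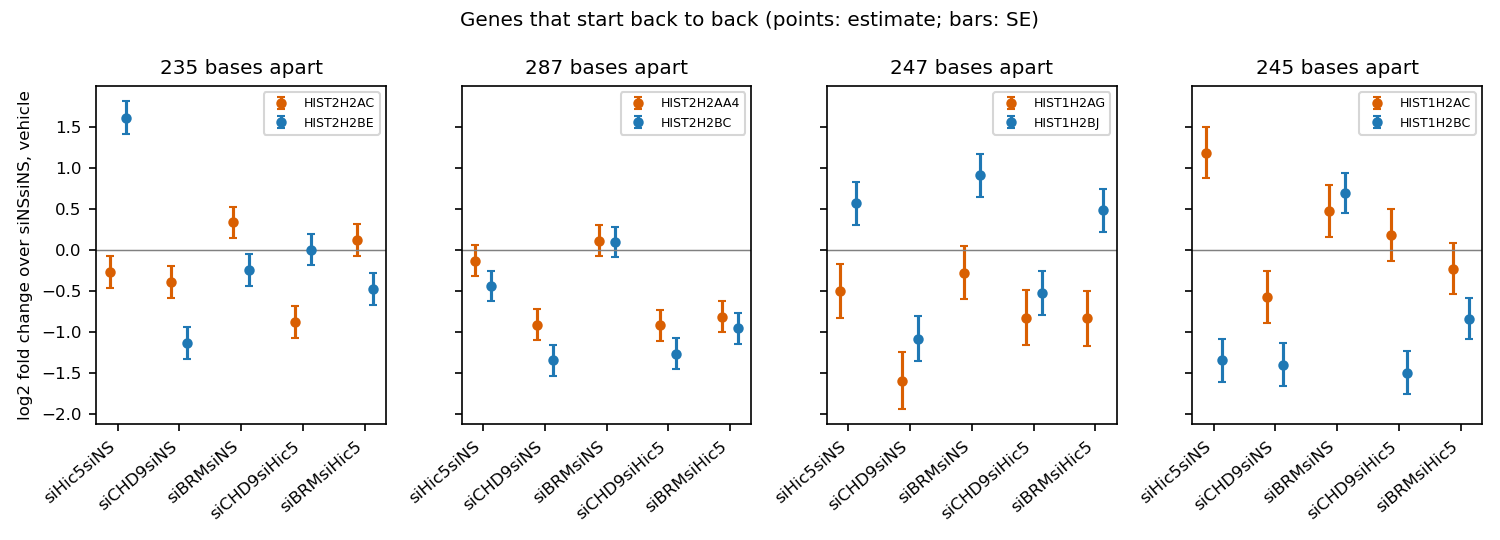
log2 fold change over siNSsiNS in vehicle (y axis; points are estimates, bars SE) of both genes of 4 back-to-back pairs in 5 siRNA conditions (x axis). With siHic5siNS, HIST1H2AC stands at 1.18 and its partner HIST1H2BC at -1.35.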

How the data were processed

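Total RNA was extracted with TRIzol and sequenced as standard Illumina libraries, per the labels' protocols. Reads were aligned with TopHat2 2.1.1 to GRCh38 and edgeR was used, per the submitters' processing notes; no source used here gives the counter, annotation or strand setting. The deposited values are whole-number counts per gene for 36 libraries. Columns were matched to samples by title. CPM was computed here with upper-quartile factors. Genes over 1 CPM in at least 3 libraries were tested (15179 of 15186; all 27 histone genes), with edgeR 4.0.16 (R 4.3.3) quasi-likelihood tests on 12 group means (24 residual degrees of freedom), Benjamini-Hochberg adjusted over all genes, threshold 0.05. Group replicates came from different days. Dex and vehicle libraries of 1 number and siRNA condition deviated together (correlations 0.458 to 0.922), so those numbers pair them. The siRNA groups involving siCHD9 also paired by number, as did siBRMsiHic5 with siBRMsiNS in vehicle (0.264 to 0.657). limma 3.58.1 on log2(CPM + 0.5) and DESeq2 1.42.0, both on the 12 group means without a block, were alternatives. The test was tried on simulated data. Named genes followed a rule: up to 6 called members per direction and comparison by smallest p, the highest members of each class, up to 3 called genes of each other list, and the siRNA targets. Members and lists were chosen with earlier results of these data known.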

Additional observations from a re-analysis of the deposited data

Results flagged for a closer look

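The siHic5 effect in vehicle differed between siRNA backgrounds, by the interaction test of edgeR, for 20 gene and background pairs. With siCHD9, 3.7% of the members were higher and 11.1% lower. These shares did not exceed the 9.34% and 11.9% of all genes. With siBRM, 0% were higher and 59.3% lower, against 9.68% and 11.3% of all genes. The values that follow are differences of log2 changes, the effect over the remodeler siRNA minus the effect over siNS. With siCHD9, in libraries whose CHD9 transcript went against the label, the differences were -1.774 for HIST1H4K, -1.752 for HIST1H4J, -2.133 for HIST1H4E and 1.25 for HIST1H2BC. With siBRM the H4 genes gave -3.953 for HIST4H4, -3.291 for HIST1H4E, -2.342 for HIST1H4H, -1.314 for HIST1H4J and -1.291 for HIST1H4K. The H2B genes gave -2.69 for HIST1H2BG, -2.362 for HIST1H2BD, -1.853 for HIST2H2BE, -1.647 for HIST2H2BF, -1.603 for HIST2H2BA and -0.8593 for HIST1H2BN. The H2A genes gave -1.885 for HIST1H2AC, -0.8079 for HIST2H2AA3 and -0.7984 for HIST2H2AA4, the last pair being 1 measurement. The H3 genes gave -1.751 for HIST1H3D and -1.205 for HIST1H3H. Of the 16 with siBRM, 4 were called without the libraries high in RNA28S5.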

How the results depend on the processing

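Across 447 alternative counts of called members, 414 stayed within 1.5 times of the reported count, 19 were lower and 14 higher. The 414 include the dex comparisons in which a reported count of 0 stayed 0. No called member changed sign. Calls of single members held less well. With siCHD9siNS, 14 of 16 in vehicle and 15 of 21 with dex were made in every alternative. For siCHD9siHic5 over siCHD9siNS 3 of 7 were. Shares of all genes in the alternatives other than the replicate block are not given here. The replicate block called 1, 7 and 1 members in the dex responses with siHic5siNS, siCHD9siNS and siCHD9siHic5, 1 in the difference for siCHD9siNS, and 12 for siCHD9siHic5 over siCHD9siNS. For siBRMsiNS, where the numbers did not pair the samples, it called 3 in vehicle and 4 with dex; it moved no other count by over 1.5 times. The siBRMsiNS counts of 1 were also 2 with limma (vehicle), 2 with DESeq2 (dex), 0 with library totals (dex) and 0 in both treatments with only the groups compared. Leaving out 1 replicate gave 0 to 3 in vehicle and 0 to 5 with dex. For siCHD9siHic5 over siCHD9siNS the count was 4 with only the groups compared and 4 to 8 without 1 replicate (lowest without siCHD9siNS replicate 1); siBRMsiHic5 over siBRMsiNS gave 5 with only the groups compared. The difference of siHic5 effects with siCHD9 gave 7 calls with limma. Without the libraries high in RNA28S5, an alternative chosen after seeing the data, counts were 0 and 0 for siBRMsiNS, 7 (vehicle) and 5 (dex) for siBRMsiHic5 over siNSsiNS, 11 over siHic5siNS, 4 over siBRMsiNS, and 4 for the difference with siBRM; the lone libraries are assumed to vary like the other groups. Medians near 0 changed sign. For the difference with siCHD9 (-0.0093) they were 0.04076 with trimmed-mean factors, 0.03394 with median ratios, 0.02264 with library totals, 0.03303 with DESeq2, and -0.1173 to 0.1257 without 1 replicate (0.01742 without siCHD9siNS replicate 2). For siHic5siNS dex the median was -0.003996 with library totals and -0.005825 to 0.2958 without 1 replicate. For siBRMsiNS, leaving out 1 replicate gave -0.03582 to 0.2313 in vehicle (-0.02598 without siBRMsiNS replicate 3) and -0.02266 to 0.3098 with dex. The cause was not tested. Counts of 1 to 84 per library limit HIST1H4E and the other members below 1 CPM.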
